A study of Mus musculus with 12 samples.

Results

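The comparison described here set liver RNA of F3 great-grandsons of obese females against liver RNA of control males. Its members were chosen by title, the 4 arrays named MatOb F3 and the 4 named control, which makes 8 of the 12 arrays of the study. All were Affymetrix whole-transcript arrays hybridised with total liver RNA of C57BL/6 males aged 12 weeks. Per the study's design, the F3 males descended over 3 generations from obese Avy/a females. Avy, viable yellow, is an allele of agouti whose ectopic expression makes carriers yellow-coated and obese. The sample labels themselves call each F3 male the son of an obese mother, so the number of generations rests on the design text and on the term F3. Control males had lean control parents, and their own generation is not given in the labels. No diet or drug was given as a treatment, and the labels used here do not give the agouti genotype of the F3 males, the parent through which descent ran, or the number of founder females. Nothing says that the replicates were separate animals or litters, so each p-value reflects the spread among these arrays, which may be partly technical. The remaining 4 arrays, F2 grandsons, entered the fit to estimate the spread. They also counted in the expression filter, the choice of probe set and the array sets described below. For the leading Cyp2c genes and Cyp8b1 their difference from the same controls is given beside that of F3.

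The liver makes bile acids from cholesterol, oxidises and exports fatty acids, clears drugs and steroids with cytochrome P450 enzymes and secretes most plasma proteins. The comparison asks whether obesity 3 generations back leaves a difference in the liver RNA of male descendants. Heat shock proteins and immediate early genes, by contrast, respond within minutes to heat, stress or handling in nearly all cells.

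The arrays measured liver. Albumin (Alb), the main protein secreted by hepatocytes, averaged 13.28 ± 0.06 (SD, n = 4) in controls and 13.34 ± 0.04 (SD, n = 4) in F3, on the log2 scale used for every level and difference here. Of 9 hepatocyte markers tested, 8 were higher in F3, with a median difference of 0.05 that came to 0.03 without control replicate 2. Of 13 Kupffer cell markers 8 were lower and 5 higher (median −0.04), of 12 endothelial markers 7 were lower (median −0.06) and of 12 stellate cell markers 5 were lower (median 0.05). Without F3 replicate 2 the first of these medians was 0.03 and the second 0.01, and without control replicate 4 the third was 0.00. No marker list separated the 4 F3 arrays from the 4 controls.

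In outline, a P450 group of the Cyp2c family lay higher in every F3 array than in any control, and the bile acid enzyme gene Cyp8b1, the chaperone genes Hspa1a and Dnajb1 and the immediate early gene Fos lay lower in every F3 array. No gene passed the test across all genes: limma called 0 of 18725 (0.0%) at an adjusted p under 0.05, and every gene named here had an adjusted p of 0.9998 or more (limma, Benjamini-Hochberg). Differences are therefore given as measurements, with the value in each array. By chance alone about 936 of the 18725 genes would have an unadjusted p under 0.05. Fewer did, 548 of all genes (2.93%), 308 of them higher (1.64%) and 240 lower (1.28%). Quantile normalization turned that balance, with 223 higher and 349 lower. Without control replicate 2 the number was 1210. With 4 arrays a group, chance alone separates 2.86% of genes. The share seen was smaller. The 4 F3 arrays did not overlap with the 4 controls for 305 genes (1.63%), 136 with F3 above (0.726%) and 169 with F3 below (0.903%). Separate groups in a single gene are therefore no sign of a difference by themselves. Each gene list below is read against these observed shares, and against the 45.3% of all genes tested that were higher in F3. Most list genes are protein-coding, and of the 13556 protein-coding genes only 38.6% were higher, so more genes lower than higher is usual for that class. Lists of oxidative phosphorylation and lipogenesis lay near that share. The lists were written with earlier results of these data known, so a share above the background is a description and no test.

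The Cyp2c genes encode P450 enzymes that hydroxylate steroids, fatty acids and drugs, and several are expressed differently in male and female liver. A gene cluster on chromosome 19 holds them. For 10 of the 12 Cyp2c genes tested RefSeq gave a window of the 250 bases before the start. The windows of Cyp2c67, Cyp2c40, Cyp2c68 and Cyp2c69 were similar around CAAAGTCCA, a motif bound by the liver nuclear receptor HNF4. A block of 154 bases was cut from each window at fixed distances before and after the motif. The length was thus set by the cut, and the similar sequence continued past both edges. The blocks are shown because these 4 genes lay higher together and because each block holds the motif. The blocks are from RefSeq on GRCm38.p6, minus strand, 5′ to 3′, with the motif in capitals.

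Cyp2c67, chr19:39649129-39649282: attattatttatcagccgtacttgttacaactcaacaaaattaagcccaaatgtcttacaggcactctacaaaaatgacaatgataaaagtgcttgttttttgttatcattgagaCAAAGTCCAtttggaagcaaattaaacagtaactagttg
Cyp2c40, chr19:39812821-39812974: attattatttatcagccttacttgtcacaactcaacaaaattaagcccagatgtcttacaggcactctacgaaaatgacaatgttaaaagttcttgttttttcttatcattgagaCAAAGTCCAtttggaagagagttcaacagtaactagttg
Cyp2c68, chr19:39741140-39741293: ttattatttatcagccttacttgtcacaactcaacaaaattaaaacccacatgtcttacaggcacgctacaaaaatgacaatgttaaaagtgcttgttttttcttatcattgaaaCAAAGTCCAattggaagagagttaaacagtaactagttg
Cyp2c69, chr19:39886806-39886959: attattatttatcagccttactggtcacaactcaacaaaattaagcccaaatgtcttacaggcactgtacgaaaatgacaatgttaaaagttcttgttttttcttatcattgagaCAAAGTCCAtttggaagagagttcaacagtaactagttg

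Any pair of these blocks was identical at 91.0% to 98.1% of aligned positions, Cyp2c40 and Cyp2c69 being the closest. The motif began 125 bases before the start in Cyp2c67, 45 in Cyp2c40, 77 in Cyp2c68 and 75 in Cyp2c69. Windows of the other Cyp2c genes matched the Cyp2c67 block at no more than 49.4% of positions without gaps. The pairs of blocks were aligned with gaps allowed, so the shares are not comparable. A copy with gaps or outside the window would be missed. Searched on both strands, CAAAGTCCA occurred in 126 of 32851 RefSeq windows (0.384%). By gene, it occurred in 65 of 11924 tested genes with a window (0.545%), and in 5 of the 10 tested Cyp2c genes with one. Besides the 4 named, this was Cyp2c70, whose window matched the Cyp2c67 block at 36.4% of positions without gaps. The blocks of the 4 are near copies, so their motifs are not separate occurrences. A match of letters is not evidence of binding.

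Cyp2c67 measured 10.97, 11.11, 10.95 and 10.90 in control replicates 1 to 4 and 11.34, 11.49, 11.34 and 11.65 in F3 replicates 1 to 4. Every F3 array was above every control, with F3 replicate 4 the highest. The difference was 0.47 (SE 0.079, 95% interval 0.30 to 0.64), or 38.6% more signal, and 0.41 without F3 replicate 4. Cyp2c68 measured 10.23, 10.36, 10.10 and 10.06 in controls and 10.53, 10.60, 10.48 and 10.88 in F3, a difference of 0.44 (SE 0.093). Cyp2c40 was at 10.30, 10.39, 10.25 and 10.19 against 10.56, 10.72, 10.54 and 10.90, a difference of 0.40 (SE 0.082). In both genes the lowest F3 array, replicate 3, was above the highest control, replicate 2. Cyp2c69 was at 9.60, 9.72, 9.57 and 9.53 in controls and 9.88, 10.02, 9.83 and 10.29 in F3, a difference of 0.40 (SE 0.093). The order of the arrays was nearly the same in these genes, with F3 replicate 4 highest and control replicate 4 lowest in each. The genes are close copies, so their probe sets can bind each other's transcripts and the measurements are not independent.

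The differences of these Cyp2c genes kept their direction in each array set described below, at 0.28 to 0.38 among the arrays with more small nucleolar RNA and 0.62 to 0.71 among those with less. In F2 against the same controls they were 0.21 (SE 0.079) for Cyp2c67, 0.16 (SE 0.082) for Cyp2c40, 0.15 (SE 0.093) for Cyp2c68 and 0.17 (SE 0.093) for Cyp2c69. The control arrays are shared, so the F2 values are no separate evidence.

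The rest of the Cyp2c family did not follow. Over the 12 genes tested 8 were higher and 4 lower, with a median difference of 0.04 (−0.02 with quantile normalization or without F3 replicate 1). The 4 described were the only ones whose arrays did not overlap (the background is 0.726% of genes with F3 above). Cyp2c genes were known from earlier results of these data when the list was written, so that share is no support for the list. Cyp2c70, which makes muricholic acids in mouse liver, measured 11.75, 9.57, 11.25 and 11.46 in controls and 11.53, 11.47, 11.60 and 11.84 in F3. The difference of 0.60 (SE 0.36) came to 0.12 without control replicate 2. Cyp2c38 was near 8 in most arrays and at 10.05 in control replicate 2, so its difference turned from −0.26 (SE 0.43) to 0.29 without that array.

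**Figure D1:**
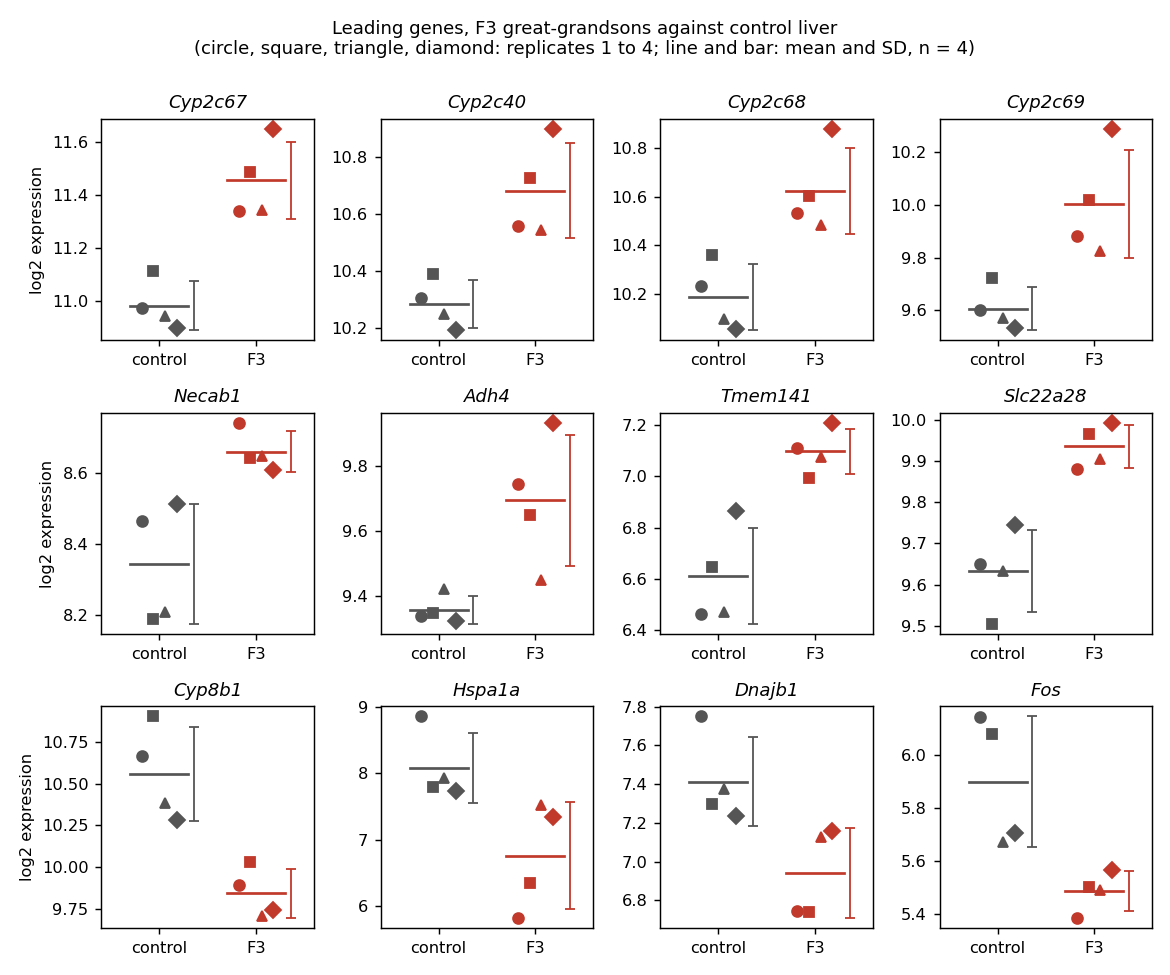
Log2 expression of 12 leading genes in each array, with control arrays in grey and F3 arrays in red, symbols for replicates 1 to 4, lines for group means and bars for SD (n = 4); axes do not start at 0. The genes were chosen among those with separate groups, so the lack of overlap in every panel follows from the choice. Cyp2c67, for example, had F3 at 11.34 or more against 11.11 or less. Cyp8b1 had F3 at 10.03 or less against 10.28 or more.

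Bile acid synthesis starts with Cyp7a1, the rate-limiting enzyme of the classic pathway, and Cyp8b1 adds the hydroxyl group that makes cholic acid. HNF4 is a known regulator of Cyp8b1, and the window before its start held the same motif as the Cyp2c blocks. The window is shown for that reason, from RefSeq on GRCm38.p6, minus strand, 5′ to 3′, with the motif in capitals 67 bases before the start.

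Cyp8b1, chr9:121916306-121916555: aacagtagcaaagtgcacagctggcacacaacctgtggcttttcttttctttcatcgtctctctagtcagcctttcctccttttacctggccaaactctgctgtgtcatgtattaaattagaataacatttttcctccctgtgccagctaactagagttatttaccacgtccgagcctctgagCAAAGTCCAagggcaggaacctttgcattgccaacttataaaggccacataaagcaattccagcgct

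Cyp8b1 measured 10.67, 10.90, 10.38 and 10.28 in controls and 9.89, 10.03, 9.71 and 9.74 in F3. The highest F3 array, replicate 2, was below the lowest control, replicate 4. The difference was −0.71 (SE 0.17, 95% interval −1.08 to −0.34), or 0.610 times the control signal. It stayed between −0.81 and −0.60 without each array in turn and was −0.48 (SE 0.17) in F2 against the same controls.

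Cyp7a1 measured 10.74, 10.63, 10.36 and 11.13 in controls and 10.87, 10.24, 10.10 and 11.01 in F3, and the groups overlapped (difference −0.16, SE 0.24, 95% interval −0.69 to 0.37, and −0.01 without F3 replicate 3, −0.02 without control replicate 4 or −0.06 without F3 replicate 2). Within the lower array set, with 1 F3 array, it was 0.46 higher. Scp2, a peroxisomal thiolase and sterol carrier used in shortening the side chain, was above every control in all F3 arrays by a small amount, 11.99 ± 0.04 against 11.87 ± 0.08 (SD, n = 4 each; difference 0.12, SE 0.059). Quantile normalization left 0.02 of that difference. Of the 17 bile acid synthesis genes tested, 8 were higher and 9 lower (median −0.01, and 0.06 without F3 replicate 3), 1 had an unadjusted p under 0.05, and 2 did not overlap, Scp2 above and Cyp8b1 below. Of 20 genes of bile acid transport and sensing, 10 were higher and 10 lower, with 0 at an unadjusted p under 0.05 in limma. Hnf4a itself was at 9.86 ± 0.11 in controls and 9.74 ± 0.14 in F3 (SD, n = 4 each), a difference of −0.12 (SE 0.081) that came to −0.08 without F3 replicate 2.

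Heat shock proteins fold other proteins and are induced by the factor HSF1 through repeats of GAA and TTC. Hspa1a encodes the inducible HSP70, and Dnajb1 the HSP40 partner that feeds it clients. Windows before the start are shown for Hspa1a, which had the largest difference of the list, and for Hspe1, the mitochondrial HSP10, as an example holding 3 such units in a row. Both are from RefSeq on GRCm38.p6, 5′ to 3′, with the first GAANNTTC match in capitals, 104 bases before the start in Hspa1a (minus strand) and 84 in Hspe1 (plus strand).

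Hspa1a, chr17:34972157-34972406: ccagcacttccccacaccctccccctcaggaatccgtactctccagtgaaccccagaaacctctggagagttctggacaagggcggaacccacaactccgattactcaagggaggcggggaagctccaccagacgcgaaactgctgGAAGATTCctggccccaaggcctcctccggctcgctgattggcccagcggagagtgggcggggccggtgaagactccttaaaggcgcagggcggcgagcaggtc
Hspe1, chr1:55087898-55088147: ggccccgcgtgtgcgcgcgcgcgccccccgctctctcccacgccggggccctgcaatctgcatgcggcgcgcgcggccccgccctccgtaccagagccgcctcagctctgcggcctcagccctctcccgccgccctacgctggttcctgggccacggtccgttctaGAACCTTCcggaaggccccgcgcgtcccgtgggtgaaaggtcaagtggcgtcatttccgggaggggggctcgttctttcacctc

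GAANNTTC reads the same on both strands and occurred in 9 of the 42 heat shock genes with a window, and in 7.73% of all 27025 genes with one. The inverted order, TTCNNGAA, occurred in 7 of the 42 and in 8.11% of all genes. A longer motif, GAANNTTC followed by NNGAA, was searched on both strands and contains both shorter ones. It occurred in 3 of the 42 (Dnajb6, Hspd1 and Hspe1) and in 0.514% of all genes. The windows of Hspd1 and Hspe1 overlap on opposite strands and hold the same site, which every motif count therefore includes for each of these genes. The windows of Dnajb1 and Bag3 held no GAANNTTC.

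Hspa1a measured 8.85, 7.79, 7.93 and 7.73 in controls and 5.82, 6.35, 7.51 and 7.34 in F3. All F3 arrays were below all controls, but replicates 1 and 2 were far lower than 3 and 4. The difference was −1.32 (SE 0.54, 95% interval −2.48 to −0.15), 0.401 times the control signal, and it was −1.01 without F3 replicate 1. Dnajb1 measured 7.75, 7.30, 7.37 and 7.23 in controls and 6.74, 6.74, 7.13 and 7.16 in F3, a difference of −0.47 (SE 0.16). As in Hspa1a, F3 replicates 3 and 4 came close to the controls. Bag3, a co-chaperone that releases clients from HSP70, was at 9.37, 8.44, 8.90 and 8.25 against 8.02, 7.52, 8.27 and 8.72, and its groups overlapped (−0.61, SE 0.32, and −0.40 without control replicate 1 or −0.41 without F3 replicate 2). The mitochondrial partners were lower by less, Hspd1 (HSP60) by −0.18 (SE 0.075) and Hspe1 by −0.16 (SE 0.083, and −0.10 without control replicate 2). Dnajb2, another HSP40, was below every control in all F3 arrays (−0.15, SE 0.072).

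Over the 50 heat shock genes tested, 41 were lower and 9 higher. The median difference was −0.08, against −0.01 over all genes and −0.02 over protein-coding genes. An unadjusted p under 0.05 was found for 3, Hspa1a, Dnajb1 and Hspd1, all lower (6.00% of the list against the 1.28% background), and 3 did not overlap (Hspa1a, Dnajb1 and Dnajb2, 6.00% against 0.903%). Hspa1a and Dnajb1 were known from earlier results of these data when the list was written, so these shares are no support for the list. By family, 9 of 10 HSP70 genes, 8 of 9 HSP60 and HSP10 genes, 6 of 6 HSP110 and small HSP genes and 7 of 10 HSP40 genes were lower. The median of the list was −0.14 in the higher array set and 0.06 in the lower one, where the single F3 array was replicate 4, and −0.04 without control replicate 1 or −0.05 without control replicate 2, F3 replicate 1 or F3 replicate 2. By array, the scores of F3 replicates 1 and 2 were −0.11 each and those of replicates 3 and 4 were 0.00 and 0.06, while controls ran from −0.08 to 0.13.

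Immediate early genes encode transcription factors and feedback proteins that are switched on within minutes of a stimulus. Fos, a component of the AP-1 factor, measured 6.14, 6.08, 5.67 and 5.70 in controls and 5.39, 5.50, 5.49 and 5.57 in F3. F3 arrays lay close together (SD 0.08) and controls far apart (SD 0.25), with the highest F3 array 0.10 below the lowest control. The difference was −0.41 (SE 0.18). The orphan nuclear receptor genes Nr4a1 (−0.27, SE 0.12) and Nr4a2 (−0.22, SE 0.077), the survival gene Ier3 (−0.19, SE 0.074, and −0.12 without control replicate 3) and Zfp36, which marks inflammatory mRNAs for decay (−0.27, SE 0.13, and −0.18 without control replicate 1), were also below every control in all F3 arrays. Of 31 genes tested 24 were lower and 7 higher (median −0.12). An unadjusted p under 0.05 was found for 4, all lower (12.9% against 1.28%), and 5 did not overlap, all below (16.1% against 0.903%). Fos was known from earlier results of these data when the list was written, so these shares are no support for the list. All 9 tested genes of the EGR, KLF and NR4A families and 6 of 7 AP-1 genes were lower. The list median lay between −0.15 and −0.09 without each array in turn.

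**Figure D2:**
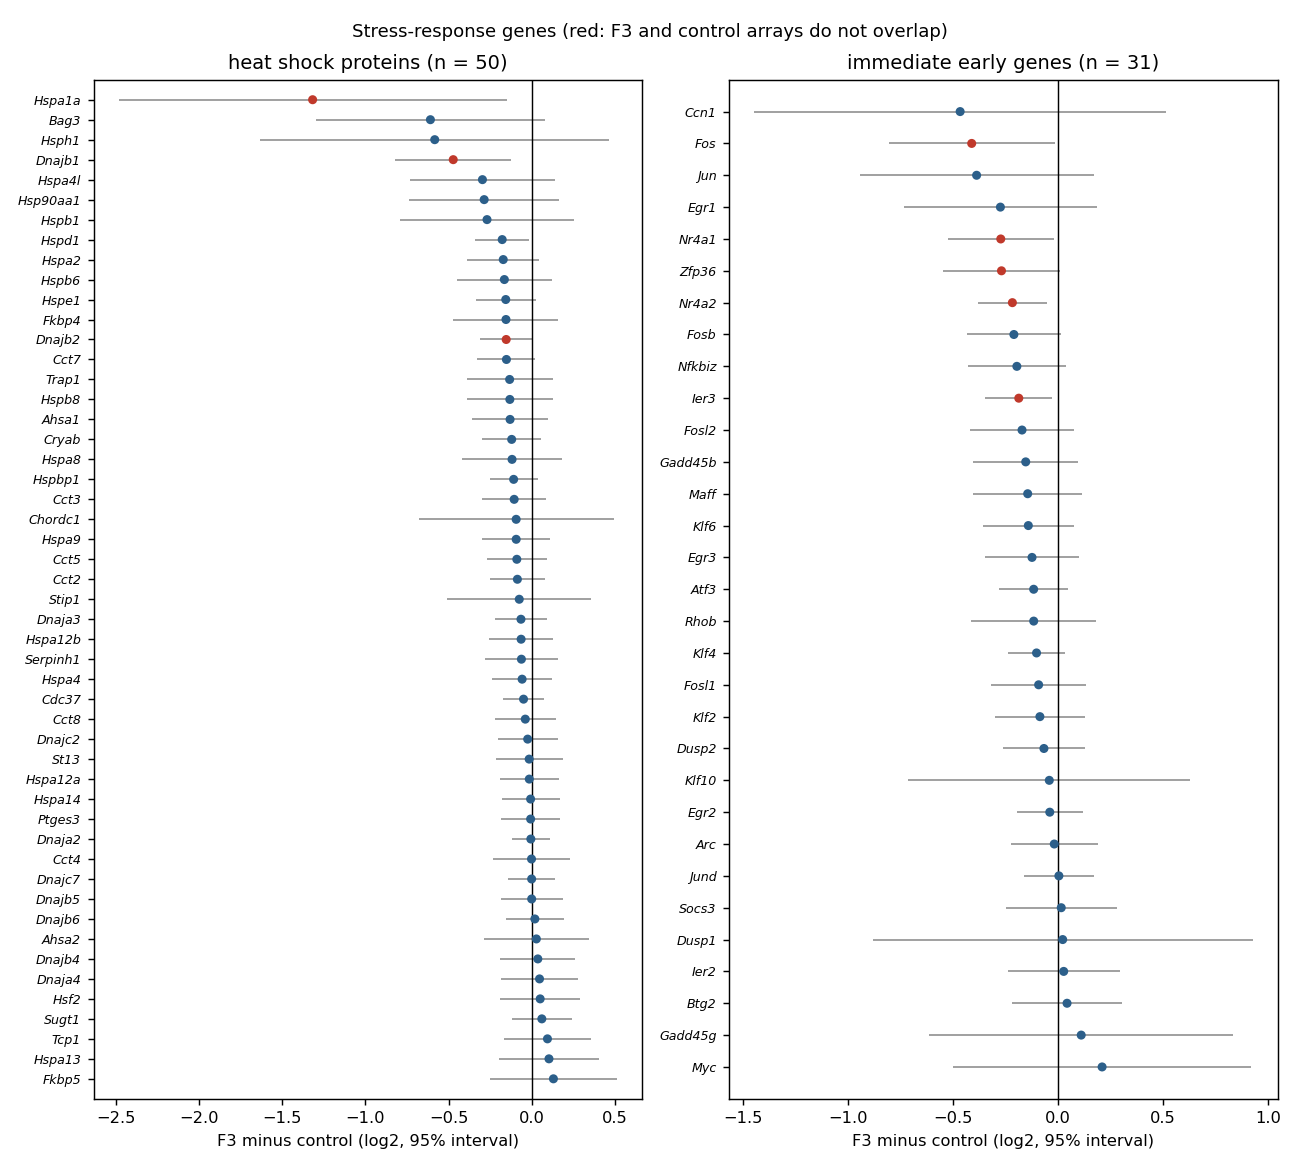
F3 minus control difference with 95% limma interval for the 50 heat shock genes (left) and 31 immediate early genes (right) tested, on the log2 scale and sorted; red points mark genes whose F3 and control arrays do not overlap. Of the heat shock genes 41 lie left of 0, with Hspa1a at −1.32, and of the immediate early genes 24 do, with Fos at −0.41.

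Chemokines and NF-kB targets were lower in 18 of 22 genes tested (median −0.10, and −0.06 without control replicate 1). Cxcl10, which attracts activated T cells, measured 5.03, 4.59, 4.81 and 4.58 in controls and 4.54, 4.46, 4.31 and 4.23 in F3. All 4 F3 values were under 4.55, the mean level required for testing, so the gene was tested on the strength of the other arrays and its difference against F3 is uncertain. Cxcr4, a chemokine receptor of leukocytes, measured 5.17, 4.92, 5.11 and 4.90 against 4.77, 4.87, 4.74 and 4.47 (−0.31, SE 0.11). It was dim in every array, and F3 replicate 4 was also under 4.55. Ly6d, a lymphocyte surface antigen, was at 6.00 ± 0.13 against 5.67 ± 0.13 (SD, n = 4 each; −0.32, SE 0.28). In bulk liver, fewer leukocytes cannot be told apart from less RNA per cell, whether in leukocytes or in other liver cells. Markers of leukocytes gave these values beside the 3 genes: of 10 T cell markers 3 were tested, with scores of −0.13 to 0.19 in controls and −0.09 to 0.03 in F3, of 9 B cell markers 6 were tested, at −0.10 to 0.28 and −0.18 to 0.01, and of 11 neutrophil markers 7 were tested, at −0.21 to 0.09 and −0.07 to 0.04. A score takes each gene's log2 value less its average in the 8 arrays, and then the median of these over the list. The part of leukocyte content in these differences was not tested.

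Plasma proteins secreted by hepatocytes leaned the other way. Of 32 complement and coagulation genes tested 28 were higher and 4 lower (median 0.09), with 14 of 16 complement genes and 14 of 16 coagulation genes higher. F9, coagulation factor IX, measured 10.41, 10.23, 10.18 and 10.25 in controls and 10.57, 10.53, 10.41 and 10.65 in F3, a difference of 0.27 (SE 0.069). The groups met at control replicate 1 and F3 replicate 3. C4bp, an inhibitor of complement (0.33, SE 0.14), and Kng1, the kininogen gene (0.15, SE 0.068, and 0.04 with quantile normalization), also had an unadjusted p under 0.05, making 3 of 32 (9.38% against 1.64%), and no gene of the list had separate groups. The terminal complement genes C6 (0.54, SE 0.30) and C9 (0.60, SE 0.35) had the largest differences but were lowest in control replicate 2, without which they came to 0.21 and 0.14. Without that array the median of the list was 0.01.

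Acute phase proteins, made under inflammatory signals, were higher in 21 of 26 genes tested, with 0 at an unadjusted p under 0.05 in limma. Their median of 0.14 came to 0.02 without control replicate 2, to 0.05 without F3 replicate 4 and to 0.08 without F3 replicate 3 or with quantile normalization. Saa1, serum amyloid A, measured 12.03, 7.06, 8.88 and 8.75 in controls and 8.57, 8.51, 11.95 and 11.65 in F3. Control replicate 1 and F3 replicates 3 and 4 were thus far above the other arrays, and the difference of 0.99 had an SE of 1.21 and came to 0.29 without control replicate 2 and to 0.40 without F3 replicate 3, and it was also smaller without F3 replicate 4. Saa2 divided the arrays in the same way (0.96, SE 1.35). The fibrinogen chain Fgb was above every control in all F3 arrays, at 12.58 ± 0.05 against 12.43 ± 0.13 (SD, n = 4 each; 0.16, SE 0.094, and 0.09 without control replicate 3).

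The apolipoproteins carry lipids out of the liver and gut. Apoa4 measured 10.60, 9.87, 9.88 and 9.94 in controls and 10.62, 11.04, 10.26 and 11.08 in F3. A single control, replicate 1, reached the F3 range. The difference was 0.68 (SE 0.21, 95% interval 0.22 to 1.13), or 59.8% more signal, and it was 0.85 without control replicate 1. It was the 1 gene of 18 lipoprotein genes tested with an unadjusted p under 0.05. Of these 18, 14 were higher (median 0.04, and 0.01 without F3 replicate 4).

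Fatty acid oxidation is controlled by PPARα, and its genes are among the most variable in liver with feeding. Of 45 genes tested 42 were lower and 3 higher (median −0.13), including 16 of 16 genes of peroxisomal and omega oxidation (median −0.32, and −0.05 without control replicate 2), but 0 had an unadjusted p under 0.05 in limma and 0 had separate groups. Cyp4a14, a PPARα-induced fatty acid hydroxylase, measured 7.46, 12.59, 9.76 and 7.14 in controls and 7.96, 8.82, 7.998 and 5.72 in F3. Control replicate 2 stood above all others, and the difference moved from −1.62 (SE 1.22) to −0.50 without it. Cyp4a31 (−0.96, SE 0.62), Cyp4a32 (−0.81, SE 0.58) and the peroxisomal enzyme gene Ehhadh (−0.65, SE 0.47) were also highest in control replicate 2 and came to −0.48, −0.41 and −0.18 without it. The list median was then 0.03. Rxra, the partner receptor of PPARα, was at −0.12 (SE 0.066) and at −0.08 without control replicate 4.

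Control replicate 2 was highest for other lipid lists too. Of 20 genes of cholesterol synthesis and uptake 18 were lower (median −0.19), among them 15 of 15 synthesis genes, and the median was 0.10 without that array. Within this list Scap, which escorts the transcription factor SREBP, was below every control in all F3 arrays (8.87, 8.92, 8.89 and 9.03 against 8.80, 8.74, 8.82 and 8.73), by −0.16 (SE 0.061). Ebp, a sterol isomerase, was at −0.21 (SE 0.088) and at −0.13 without F3 replicate 2. Lipid droplet and lipolysis genes were lower in 12 of 15 (median −0.07, and −0.01 without control replicate 2). Pnpla2, the lipase that starts triglyceride breakdown, was at −0.41 (SE 0.17) and stayed at −0.28 or lower without each array. Lipogenesis genes were lower in 18 of 28 (median −0.04), and leaving out an array gave medians of 0.01 (control replicate 2), 0.00 (control replicate 4) and 0.05 (F3 replicate 4). Mogat1, which makes diglycerides, was at −0.21 (SE 0.072) but close to background at 4.72 ± 0.11 in controls (SD, n = 4).

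Serpina12, the gene of the adipokine vaspin, was at 7.22, 5.03, 6.75 and 7.02 in controls and 7.09, 7.44, 7.26 and 7.03 in F3. The difference of 0.70 (SE 0.37) came to 0.21 without control replicate 2. Cyp2b9 was at 8.50 in that array and at 4.07 to 4.49, under 4.55, in the other 7, so its difference of −1.01 (SE 0.76) became 0.07 without it. Obp2a, a lipocalin, was at 10.65 in F3 replicate 4 and between 4.63 and 6.41 in the other 7 arrays, and its difference turned from 0.93 (SE 0.96) to −0.35 without that array.

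Enzymes that conjugate and detoxify varied by family. Glutathione transferases were lower in 16 of 18 genes tested (median −0.25). Gstm6 measured 7.19, 7.26, 7.22 and 7.39 in controls and 7.05, 6.95, 7.02 and 6.98 in F3, with all F3 arrays below all controls (−0.26, SE 0.070). Gstm2 was at −0.27 (SE 0.084) with overlapping groups. These 2 genes had an unadjusted p under 0.05, both lower (11.1% of the 18 against 1.28%). Without control replicate 2 the family's median was −0.09, and within the lower array set it was 0.05. Of 6 sulfotransferases 5 were higher (median 0.11, and 0.04 without F3 replicate 1). Methyl and acyl transferases were higher in 4 of 5 (median 0.15, and 0.09 without control replicate 3). Among 10 glucuronosyl transferases 5 were higher and 5 lower (median 0.00). Aldehyde dehydrogenases were lower in 11 of 12 (median −0.13, and −0.07 without control replicate 2), whereas 4 of 5 alcohol dehydrogenases were higher (median 0.12). Adh4, which oxidises ethanol and retinol, measured 9.34, 9.35, 9.42 and 9.32 in controls and 9.74, 9.65, 9.45 and 9.93 in F3 (0.34, SE 0.088), and F3 replicate 3 only just cleared the controls.

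Targets of NRF2, the factor of the oxidative stress response, were lower in 14 of 16 (median −0.18, and −0.05 without control replicate 2). Srxn1, which repairs peroxiredoxins, was at −0.27 (SE 0.11) and at −0.15 without control replicate 2. The ferritin light chain gene Ftl1 was at −0.23 (SE 0.10). Haem oxygenase Hmox1 was at −0.35 (SE 0.19) and at −0.18 without control replicate 1. Ugdh was listed with the glucuronosyl transferases and not with the NRF2 targets. It makes the sugar donor for glucuronidation and was at −0.44 (SE 0.19), and at −0.23 without control replicate 2.

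Transporters of organic ions had 8 genes higher and 6 lower of 14 tested, with a median difference of 0.00. Slc22a28, of the organic anion transporter family, measured 9.65, 9.50, 9.63 and 9.75 in controls and 9.88, 9.97, 9.91 and 9.99 in F3 (0.30, SE 0.094). Slc22a30 measured 10.07, 10.09, 10.06 and 10.20 against 10.31, 10.41, 10.30 and 10.53 (0.28, SE 0.088). Slc16a10, a transporter of aromatic amino acids, measured 9.27, 9.24, 9.20 and 9.19 against 9.04, 8.82, 8.92 and 9.07 (−0.26, SE 0.068). The groups did not overlap in any of these 3 genes, 2 with F3 above (14.3% of the 14 against 0.726%) and 1 below.

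Liver expression is also set by sex through the pattern of growth hormone release. Of 25 male-biased genes 19 were higher (median 0.10, and 0.05 without control replicate 2), and of 15 female-biased genes 9 were lower (median −0.03, and 0.12 without control replicate 2). The female-biased P450 genes did not all lie on the same side. Cyp2c40 and Cyp2c69 were higher in F3, as given above, and Cyp2a4 and Cyp2g1 were lower. Cyp2a4, a steroid hydroxylase, measured 11.08, 11.40, 11.21 and 11.03 in controls and 11.12, 10.51, 10.01 and 10.52 in F3 (−0.64, SE 0.29), with F3 replicate 1 inside the control range. Cyp2g1 was at −0.35 (SE 0.13) and at −0.23 without F3 replicate 3.

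The growth hormone and insulin axis had 17 genes higher and 18 lower of 35 (median −0.00). Igfbp2, which binds insulin-like growth factors, measured 10.13, 9.82, 10.25 and 9.73 in controls and 9.73, 9.72, 9.51 and 9.08 in F3. The difference was −0.47 (SE 0.15), or 0.722 times the control signal. Control replicate 4 and F3 replicate 1 touched, and within the higher array set it was −0.12. Grb14, an inhibitor of the insulin receptor, lay above every control in all F3 arrays, at 7.40, 7.42, 7.39 and 7.53 against 7.61, 7.60, 7.63 and 7.59 (0.18, SE 0.053). Igf1 was at 0.26 (SE 0.12) and at 0.12 without control replicate 2.

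Mitochondrial genes differed little. Of 71 oxidative phosphorylation genes 43 were lower (median −0.03, and 0.00 without control replicate 1), and 5 had an unadjusted p under 0.05, all lower (7.04% against 1.28%). These were Uqcrc1 (−0.26, SE 0.11) and Uqcrh (−0.15, SE 0.068) of complex III, Sdhc of complex II (−0.16, SE 0.065), Ndufa7 of complex I (−0.14, SE 0.061) and the ATP synthase gene Atp5a1 (−0.12, SE 0.051). Atp5a1 was at 10.74, 10.74, 10.70 and 10.74 in controls and 10.67, 10.60, 10.62 and 10.55 in F3, so a small difference was seen in every array. Uqcrh and Sdhd (−0.12, SE 0.066) had separate groups as well. Mdh2, a TCA cycle enzyme, was at −0.24 (SE 0.092), and 13 of 18 TCA cycle genes were lower (median −0.08, with −0.02 without control replicate 2 and −0.03 without F3 replicate 4).

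Other genes with separate groups and a difference of at least 0.3 were Necab1 and Tmem141. Necab1, a calcium-binding protein, measured 8.47, 8.19, 8.21 and 8.51 in controls and 8.74, 8.64, 8.65 and 8.61 in F3 (0.32, SE 0.082). Tmem141, a small membrane protein, measured 6.46, 6.65, 6.47 and 6.86 against 7.11, 6.99, 7.08 and 7.21 (0.49, SE 0.14). Over all genes 29 met both conditions, 21 higher and 8 lower, of which 14 were predicted genes, pseudogenes or small RNA genes and were passed over in naming.

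**Figure D3:**
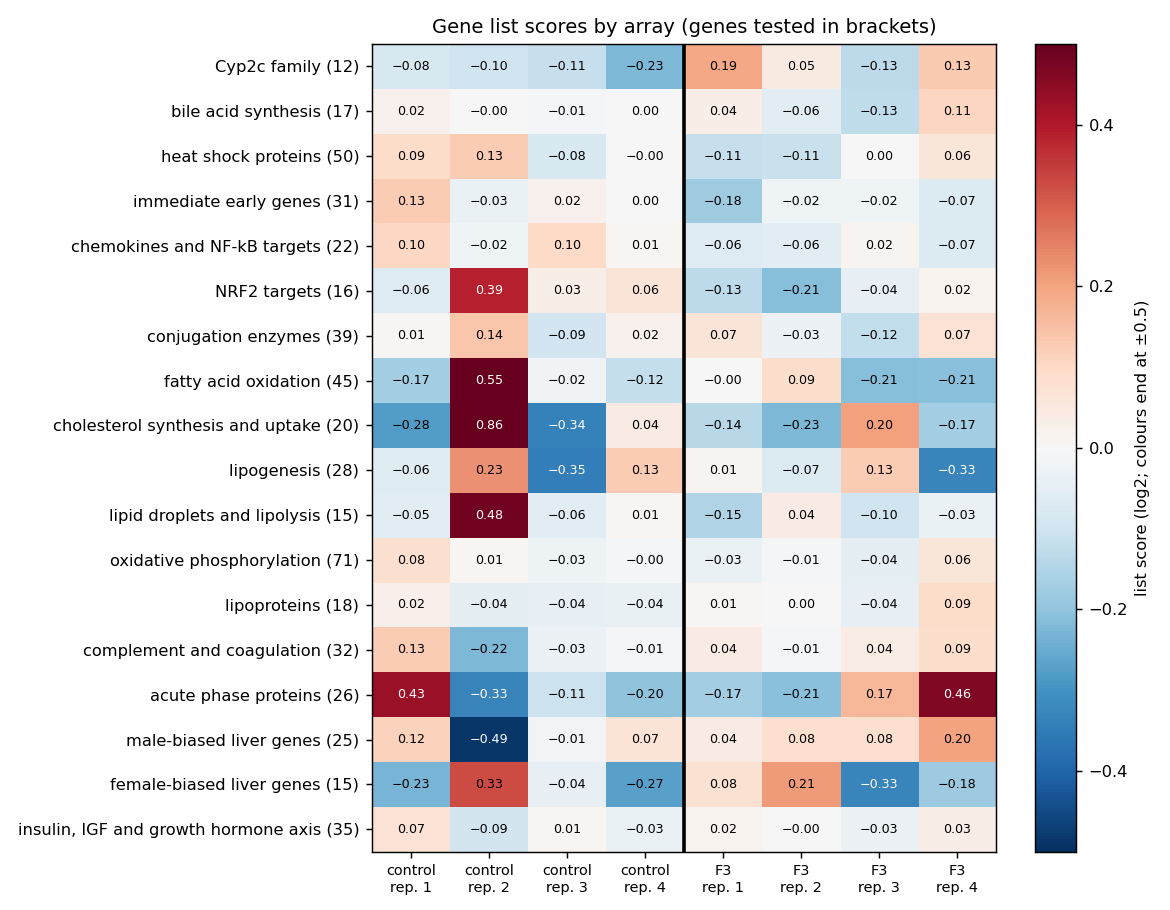
Score of 18 gene lists in each of the 8 arrays, on the log2 scale with colours ending at 0.5 in either direction and the number of genes tested in brackets; the vertical line parts controls from F3. Control replicate 2 holds the highest scores of fatty acid oxidation (0.55) and cholesterol synthesis and uptake (0.86), and no list separates all F3 from all control arrays.

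Across genes the differences were small. The median size was 0.06 and the 95th percentile 0.23, and the 95% limma interval lay within 1.5-fold for 94.1% of genes. A difference of at least 0.3 was seen for 434 genes, 337 higher and 97 lower, one of at least 1.5-fold for 59, 48 higher and 11 lower, and one of at least 1 for 3, the lower genes Cyp4a14, Hspa1a and Cyp2b9. These counts moved with single arrays. The 434 became 294 without control replicate 3 (128 higher, 166 lower), 728 when control replicate 2 was left out, 762 for control replicate 4 and 697 for F3 replicate 4.

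The largest sizes were in the brightest genes. Genes were put in 5 equal bins by their mean. From the lowest bin (means of 4.55 to 5.20 over the 12 arrays) to the highest (7.71 to 13.47) the median size was 0.056, 0.055, 0.055, 0.059 and 0.076, so it was nearly flat over the lower bins. The share that differed by at least 0.3 was 1.31%, 1.34%, 1.52%, 2.22% and 5.21%. The share with an unadjusted p under 0.05 was 2.75%, 2.16%, 2.30%, 2.80% and 4.62%, and the arrays did not overlap for 1.28% of the lowest bin and 1.90% of the highest. The sign also moved with level, 38.4% of the lowest bin and 56.7% of the highest being higher in F3. Protein-coding genes were higher in 32.2% of 1512 genes below 5 and in 51.5% of 359 genes at 10 or more.

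Differences also varied with gene class. Protein-coding genes (13556) had a median difference of −0.02, and those with an unadjusted p under 0.05 were 107 higher and 195 lower. Pseudogenes (2576) had a median of 0.05 with 142 higher and 24 lower, 6.44% of the class against 2.23% of protein-coding genes. Quantile normalization left 77 higher and 35 lower pseudogenes, with a median of 0.02. Those with means of 8 or more were higher in 79.5% of 765. The 186 pseudogenes named after a ribosomal protein gene had a median of 0.08, with 23 at an unadjusted p under 0.05, all higher, while the 34 ribosomal protein genes tested had a median of −0.02 with 1, lower. A processed pseudogene is a near copy of its parent, so its probe set can bind the parent's transcript, and single pseudogene values are uncertain.

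**Figure D4:**
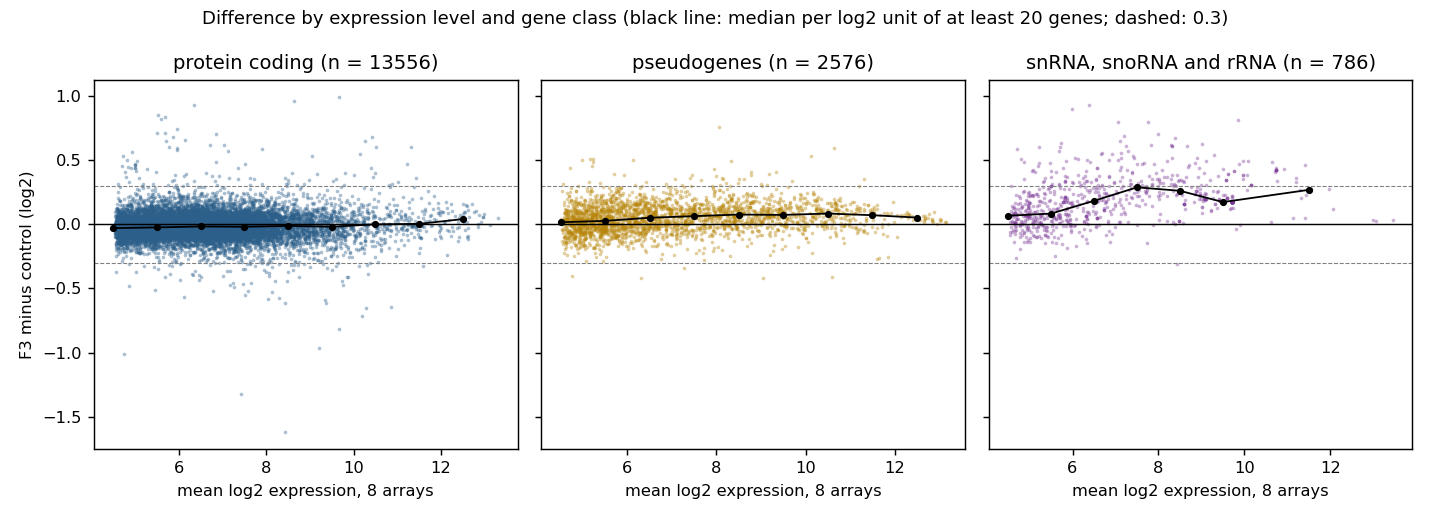
F3 minus control difference (log2) of each gene against its mean log2 expression over the 8 arrays, for protein-coding genes, pseudogenes and the structural RNAs (snRNA, snoRNA and rRNA); black points are medians per log2 unit and dashed lines mark 0.3 in either direction. Protein-coding genes centre on −0.02, pseudogenes on 0.05, and the structural RNAs lie mostly above 0.

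Structural RNA genes made up 173 of the 337 genes that were higher by at least 0.3. Small nuclear RNAs, which build the spliceosome, were higher in 360 of 387 genes (median 0.20), small nucleolar RNAs, which guide modification of ribosomal RNA, in 262 of 337 (median 0.08) and ribosomal RNA in 62 of 62 (median 0.27). Of the 434 genes with a difference of at least 0.3 in either direction, 95 were snRNA genes, 65 snoRNA genes and 14 rRNA genes. Control replicate 3 was low in these RNAs, with class scores of −0.61 for snRNA and −0.86 for rRNA, where the other controls ran from −0.01 to 0.19 and from −0.24 to 0.36. Without it the medians were 0.04 for snRNA, 0.05 for snoRNA and 0.02 for rRNA. The F3 arrays were not uniform either, since replicates 1 to 3 had rRNA scores of 0.31 to 0.33 and replicate 4 of −0.33.

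**Figure D5:**
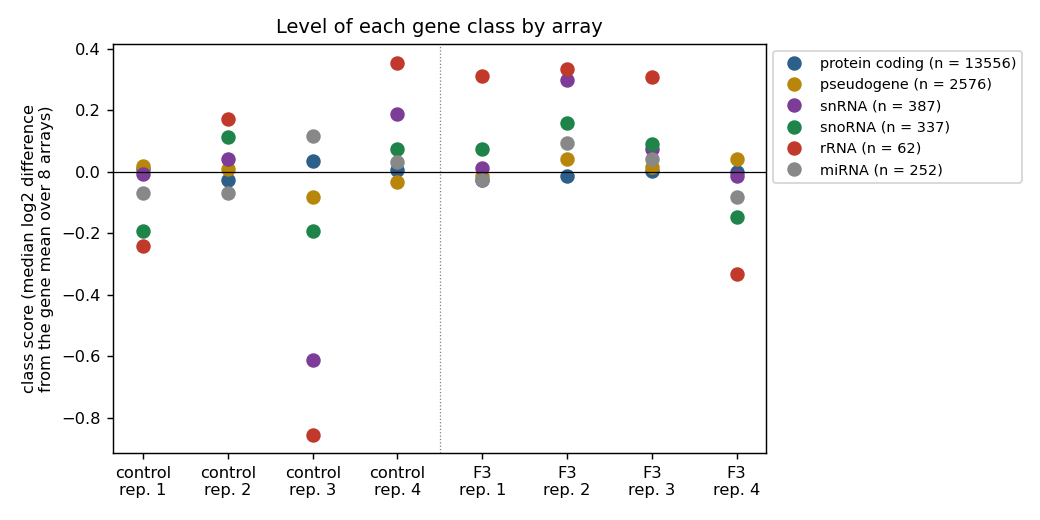
Class score of each array (log2), made like a list score over all genes tested of a class, for 6 gene classes. Control replicate 3 is lowest for rRNA (−0.86) and snRNA (−0.61), F3 replicate 4 stands below the other F3 arrays for rRNA (−0.33), and the protein-coding scores stay between −0.03 and 0.03.

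The mean snoRNA level parted the arrays at its widest gap into a higher set (control replicates 2 and 4, F3 replicates 1, 2 and 3) and a lower set (control replicates 1 and 3, F3 replicate 4). No label names these sets, so they are a feature of the data and not a batch known from the study. With the set as a block, 345 genes differed by at least 0.3, 174 higher and 171 lower, and limma still called 0 genes, with 396 higher and 303 lower at an unadjusted p under 0.05. Pairs of arrays of one group and one set correlated with a median r of 0.992 across genes, and pairs of one group but different sets with 0.983. Pairs of different groups in one set gave 0.990. The sets were cut on the level of snoRNA genes that are among the genes correlated, so a higher r within a set follows in part from the cut. Genes are not independent replicates.

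Controls agreed among themselves less than F3 arrays did. The median r was 0.984 within controls and 0.989 within F3, and the lowest of all pairs was 0.965, between control replicates 2 and 3. The median SD per gene was 0.148 in controls and 0.0996 in F3, and only 31.3% of genes had the larger SD in F3. Control replicate 3 was the array furthest from the group mean for 43.3% of genes and control replicate 2 for 31.5%. Among F3 arrays, replicate 4 was the furthest for 32.7%. Of the 434 genes with a difference of at least 0.3, 29 had all 4 F3 arrays beyond all controls, 64 had 3, 121 had 2, 147 had 1 and 73 had none. For 220 of the 337 higher genes, leaving out control replicate 3 reduced the difference more than leaving out any other array.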

How the data were processed

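The 12 liver arrays were labelled with biotin and hybridised by the authors, per the labels' protocols. The deposited values were log2 expression per probe set. The submitters' processing notes name Affymetrix Expression Console. Not given in the sources used here are its version, background correction and normalization. Array number limits the precision. The table held 72688 probe sets, of which 30604 had 1 gene symbol in the platform annotation, 2146 several and 39938 none. Classes and 827 updated symbols came from a RefSeq table of GRCm38.p6. Of several probe sets per gene the brightest was used, and the 18725 genes with a mean above 4.55, the median of probe sets, were tested.

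All 12 arrays were fitted in R 4.3.3 with limma 3.58.1 (lmFit and eBayes, no covariate, 9 residual degrees of freedom), with the contrast F3 minus control and Benjamini-Hochberg adjustment over all genes tested. The fit was tested on simulated data. Of genes with separate groups and a difference of at least 0.3, up to 12 per direction were named by lowest p, passing over predicted, RIKEN, pseudogene and small RNA names. The 5 largest differences per direction and up to 6 members of each list by lowest p were named as well. Names met among members at other ranks were chosen after their values were seen. The comparison, the 56 gene lists and the array sets were chosen with earlier results of these data known. Lists are described by counts and medians, with no test. Alternatives were quantile normalization, median centring, other filters, mean over probe sets, trend and robust eBayes, array weights, the 8 arrays only, replicate or array set as a block, each array set alone, each array left out, and other thresholds.

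Motifs were searched on both strands of RefSeq windows of 250 bases before each start with Python 3.11.15. Array probes have no build in the sources used here, so no coordinates are given for them.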

Additional observations from a re-analysis of the deposited data

Results flagged for a closer look

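Within groups of 4 arrays, 12 of 232 sets of values had a highest or lowest array far from the other 3 by Dixon's criterion, a rate near the 1 in 20 that chance gives. Control replicate 2 was far above the other controls for Cyp2c38 (10.05 against 7.81 to 7.84), Cyp2b9 (8.50 against 4.07 to 4.27), Ehhadh (12.03 against 9.97 to 10.26) and the score of lipid droplet and lipolysis genes (0.48 against −0.06 to 0.01). It was far below them for Obp2a (4.63 against 6.12 to 6.41). Control replicate 1 was far above the other controls for Apoa4 (10.60 against 9.87 to 9.94) and for the lipoprotein score (0.02 against −0.04 in the others), and control replicate 3 was below them for Atp5a1 (10.70 against 10.74), a gap of no size. Among F3 arrays, replicate 1 was above the others for Cyp2b9 (4.49 against 4.15 to 4.18), replicate 3 for the score of chemokines and NF-kB targets (0.02 against −0.07 to −0.06) and replicate 4 for C9 (11.36 against 10.60 to 10.68), and replicate 4 was below the others for Mogat1 (4.39 against 4.54 to 4.57).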

How the results depend on the processing

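Limma called 0 genes under every alternative run except the lower array set alone, where 1 F3 array against 2 controls gave 2 calls, Obp2a (4.27, adjusted p = 5.27e-05) and Treh (1.87, adjusted p = 0.0434). An unadjusted p under 0.05 with 1.5-fold was reached by 8 genes. The 548 genes with an unadjusted p under 0.05 became 918 with no filter, 970 with array weights, 859 in the higher array set alone, and 401 to 1210 without each array in turn. The 305 genes without overlap became 173 with median centring, 498 with no filter, 202 with the stricter filter, 3103 in the higher set, 12260 in the lower set, 532 to 1177 without each array in turn, and 29 with a difference of at least 0.3 as well. Fewer arrays separate more easily by construction. Of 1451 recomputed gene differences 10 turned in sign. They were Cyp2c38 with array weights (0.064), in the lower set (0.16) and without single arrays (range −0.46 to 0.29), Cyp7a1 (0.46), Ugdh (0.045), Igf1 (−0.049), Ftl1 (0.14) and Sdhc (0.0028) in the lower set, and, without single arrays, Cyp2b9 (−1.41 to 0.069) and Obp2a (−0.35 to 1.503). The cause was not tested. Of 1118 recomputed list medians 39 moved by more than the spread between replicates.

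Same-numbered control and F3 arrays deviated with correlations of −0.18, 0.10, −0.04 and −0.44 across genes. Deviations from a group mean are tied to each other, so these values cannot show whether the numbers pair the arrays. No pairing was used in the main fit. With the replicate number as a block limma called 0 genes and 409 had an unadjusted p under 0.05 (244 higher, 165 lower). The precision is limited by 4 arrays a group, and genes near 4.55 are close to background.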
